A study of Mus musculus with 6 samples.

Results

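Mouse genes carrying a Zfp symbol were followed through RNA precipitated from testis with an antibody against MVH (DDX4), a germ cell RNA helicase. The members were all probes whose symbol in the array's annotation starts with Zfp and a digit, that had a value on every array, and whose deposited intensity averaged at least 20 over both total RNA arrays. Of 222 such probes for 220 symbols, 15 were blank on 1 or more arrays and 91 lay under that level, which left 116 probes for 116 genes of the 23473 probes in the table. No member gene had a second probe that met the rule. The members were thus chosen by their level in total RNA, and differences from total RNA are given here as values with no test. The difference between the antibodies was not used by the rule and was tested.

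There were 3 groups of 2 arrays, all from testis of mice labelled C57/BL6, with no age given. The first (MVH 1 and 2) was RNA recovered with an antibody against MVH. The second (IgG 1 and 2) was RNA recovered with normal rabbit IgG, the control for what sticks to antibody and beads. The third (WCE 1 and 2) was total RNA with no antibody, called total RNA below. The protocol starts from a pair of testes dispersed by needle, so every cell type of the organ was present, and it names no crosslinking step. Nothing in the labels ties the numbered arrays to separate animals, so p-values speak only of the spread among these arrays, some or all of which may be technical. Each array was labelled with Cy5 after amplification. Amplified RNA and centred arrays show the makeup of a precipitate, not how much RNA it held.

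Most proteins with this name are C2H2 zinc finger proteins, in which a pair of cysteines and a pair of histidines hold a zinc ion in each finger and arrays of fingers read DNA. Many also carry a KRAB domain, which recruits the corepressor TRIM28 and silences transposable elements and other targets. The name is historical and also covers unrelated proteins: CCCH zinc finger proteins such as Zfp36l1 bind AU-rich mRNA and promote its decay. RefSeq kept 94 of the 116 symbols and renamed 22, of which 20 no longer start with Zfp and a digit. Those 20 include the ubiquitin ligase genes Rnf114 (Zfp313 on the array) and Rnf115 (Zfp364), the Arf GTPase-activating protein gene Arfgap2 (Zfp289) and the splicing factor gene Zranb2 (Zfp265). A member given as a pseudogene, Zfp353, is now Zfp353-ps.

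Intensities below are scaled so that the median probe of every array stands at 30, and n is 2 arrays per group throughout. In total RNA the members had a median scaled intensity of 84.1, against 98.8 over the 13247 probes listed on all 6 arrays at the same level. The 2 arrays of a group differed over the members with an SD of 0.45 on the log2 scale for MVH, 0.50 for IgG and 0.32 for total RNA. Their log2 values correlated at 0.971, 0.963 and 0.984 over the 116 genes, which share these arrays. The members just inside the limit were Zfp69 (mean deposited intensity 20.8), Zfp219 (20.9) and Zfp553 (22.4). Those just outside were Zfp512 (19.6), Zfp278 (19.2) and Zfp358 (19.05).

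The comparison of the precipitates asked which Zfp mRNAs stood higher with the MVH antibody than with IgG. Of the 116 genes, 6 were higher and 5 lower with MVH (limma, Benjamini-Hochberg adjusted p under 0.05 over all 21574 probes tested). That is 9.48% of the genes, against 7.97% of all probes tested (3.82% higher and 4.15% lower). Over all probes at the members' level, 11.1% were called, with 5.43% higher and 5.65% lower. The share called therefore lay between both backgrounds and is no result about the family. Zfp474, Zfp558, Zfp39, Zfp110, Zfp105 and Zfp1 were the higher ones, and Zfp353, Zfp707, Zfp263, Zfp113 and Zfp523 the lower ones.

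Zfp474, a zinc finger gene known for its expression in testis, had the largest difference of the family. The probe read 657 and 797 for MVH, 146 and 146 for IgG, and 377 and 401 for total RNA. The 3 groups were fully apart, with total RNA in the middle. The fitted difference was 4.97-fold on the linear scale, or 2.31 ± 0.27 in log2 (SE, adjusted p = 0.0148 by limma).

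Zfp558 followed with 150 and 261 for MVH, 40.4 and 51.9 for IgG, and 81.6 and 82.7 for total RNA. Here too both MVH arrays lay above total RNA and both IgG arrays below it, although the MVH arrays were themselves wide apart. The difference was 4.33-fold (log2 2.11 ± 0.33, adjusted p = 0.0172), and it was 1.72 on the log2 scale without MVH 2 and 2.51 without MVH 1.

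Zfp39 and Zfp105 are, like Zfp474, among the genes listed here for a known link to male germ cells. On the log2 scale above each array's median, Zfp39 stood at 1.32 and 1.86 for MVH, 0.45 and 0.15 for IgG and 0.56 and 0.24 for total RNA (difference 1.29 ± 0.31, adjusted p = 0.0390). Only the MVH arrays stood apart, since those of IgG and total RNA overlapped. Zfp105 showed another arrangement, at 699 and 989 for MVH, 327 and 411 for IgG, and 859 and 1042 for total RNA (log2 1.18 ± 0.30, adjusted p = 0.0483). Its MVH arrays overlapped with total RNA, and its IgG arrays were the low ones.

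Zfp110 encodes NRIF, a partner of the neurotrophin receptor p75. It read 136 and 214 for MVH, 75.1 and 66.1 for IgG, and 114 and 98.8 for total RNA (log2 1.28 ± 0.31, adjusted p = 0.0403). Zfp1 read 95.8 and 64.8 for MVH, 36.3 and 34.6 for IgG, and 58.7 and 53.6 for total RNA (log2 1.15 ± 0.29, adjusted p = 0.0472). In both genes total RNA lay between the precipitates. Zfp369, the relative of Zfp110 also known as a p75 partner, read 22.6 and 41.9 for MVH against 15.3 and 12.8 for IgG (log2 1.13 ± 0.34), which did not pass (adjusted p = 0.0771).

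**Figure D1:**
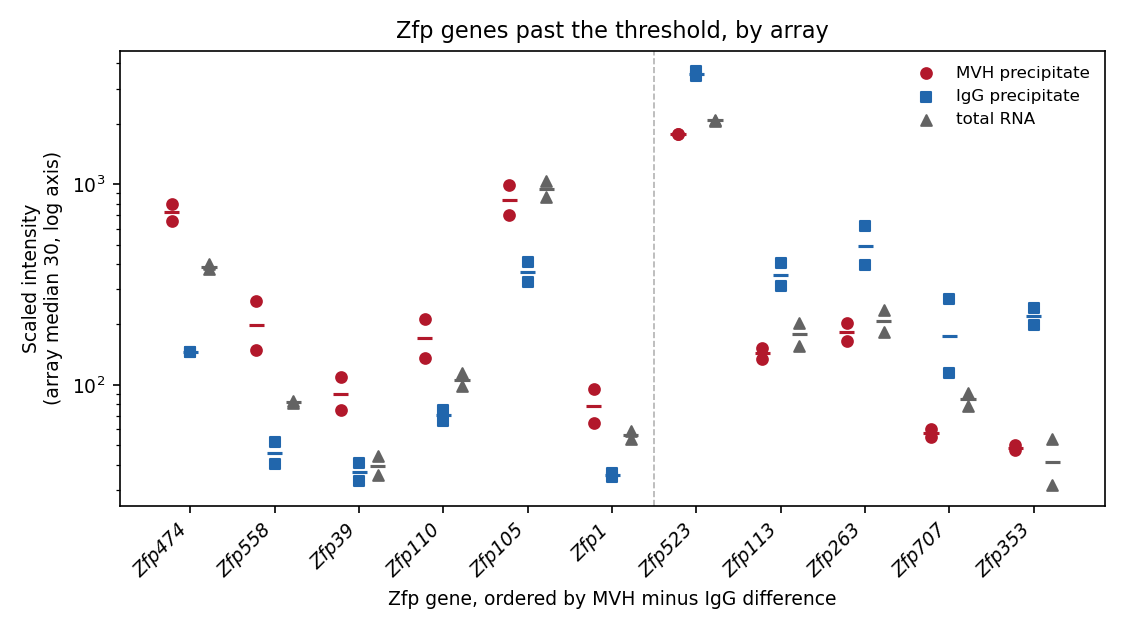
Scaled intensity (array median 30, log axis) of the 11 Zfp genes past the threshold on each array. Points are arrays, short lines the geometric mean of the 2 arrays of a group, and the dashed line parts the 6 genes higher with MVH from the 5 lower. Zfp474 stands at 657 and 797 for MVH against 146 and 146 for IgG, while Zfp353 stands at 49.9 and 47.4 against 198 and 243.

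Among the 5 lower genes, the probe named Zfp353 on the array led. It read 49.9 and 47.4 for MVH, 198 and 243 for IgG, and 31.6 and 53.8 for total RNA. The MVH arrays overlapped with total RNA, whereas the IgG mean lay 2.41 above that of total RNA on the log2 scale. The difference of MVH from IgG was -2.18 ± 0.32 (SE, adjusted p = 0.0172). As a pseudogene it may share sequence with other genes, so that the source of this signal is uncertain. The probe sequences were not among the sources used here, so cross-binding between related zinc finger genes was not checked for any member.

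Zfp707 read 60.0 and 54.8 for MVH, 267 and 114 for IgG, and 78.7 and 91.3 for total RNA (log2 -1.60 ± 0.39, adjusted p = 0.0433). The wide gap between its IgG arrays makes the size uncertain, at -0.99 without IgG 1 and -2.22 without IgG 2. Zfp263, which joins a SCAN and a KRAB domain to its fingers, read 166 and 204 for MVH, 620 and 395 for IgG, and 235 and 184 for total RNA (log2 -1.42 ± 0.32, adjusted p = 0.0339). Zfp113 read 153 and 135 for MVH, 406 and 310 for IgG, and 156 and 204 for total RNA (log2 -1.30 ± 0.29, adjusted p = 0.0337).

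Zfp523 is the mouse counterpart of human ZNF76 and a relative of the promoter-binding factor Zfp143. It was bright and even, at 1790 and 1781 for MVH, 3649 and 3465 for IgG, and 2102 and 2064 for total RNA. The difference of -0.99 ± 0.26 lay at the threshold (adjusted p = 0.04997). All 5 lower genes had both IgG arrays above both total RNA arrays, as did 22.8% of all probes at the members' level. These genes were called for IgG standing above MVH, so a high IgG position is partly built in. For 3 of them, Zfp707, Zfp113 and Zfp523, both MVH arrays were also below total RNA, and for the other 2 the MVH and total RNA arrays overlapped.

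**Figure D2:**
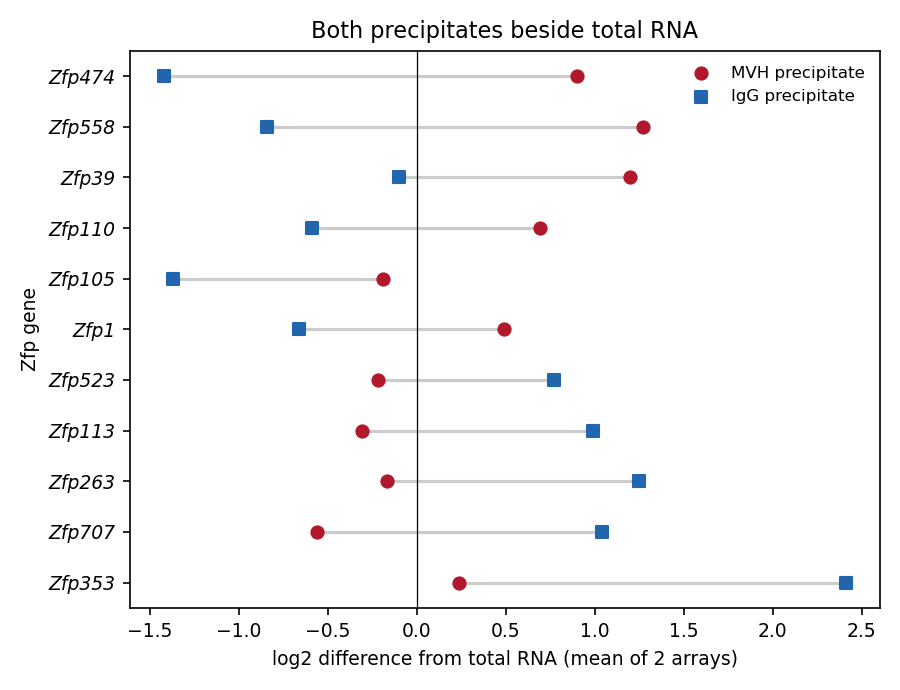
Log2 difference of each precipitate's mean from the mean of total RNA for the 11 Zfp genes past the threshold, circles for MVH and squares for IgG. The IgG squares of the 5 lower genes lie between 0.77 and 2.41 above total RNA. Zfp39 has its MVH circle at 1.20 and its IgG square at -0.10.

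Summed markers of Leydig, peritubular and vascular, and Sertoli cells also differed between the precipitates, in the direction of these 5 genes. Single markers did not all do so, and 2 of 5 Sertoli cell differences of MVH from IgG were positive. All 4 macrophage and blood marker differences were positive too, with a median of 0.45. The sums rest mostly on their brightest markers, such as Acta2 with 3037 of the 3148 for peritubular and vascular markers on IgG 1. The 4 measured of 5 Leydig cell markers summed to 459 and 432 for MVH, 2790 and 1663 for IgG, and 580 and 1014 for total RNA, and 3 of the 4 were lower with MVH. For peritubular and vascular markers (5 of 5 measured) the sums were 539 and 342, 3148 and 1459, and 403 and 496. For Sertoli cell markers (5 of 6 measured) they were 4004 and 3899, 8563 and 6615, and 5268 and 5622. No measured marker of these lists was blank on every array. The 5 round spermatid markers were bright in all groups, with sums of 85520 and 117039 for MVH and 77942 and 121802 for IgG. The 4 measured of 5 spermatogonial markers were dim, with sums of 84.6 to 136 over the 6 arrays. Of the markers tested, 2 of 3 peritubular and vascular and 1 of 5 Sertoli cell markers were lower with MVH, and 1 of 5 spermatocyte markers was higher. None of 3 spermatogonial, 5 round spermatid, 5 elongating spermatid or 4 macrophage and blood markers passed by limma, with 0, 2, 2 and 1 at an unadjusted p under 0.05. Over all probes tested, 5494 of 21574 had such a p, so these counts are no result about the markers. The part of these markers in the Zfp differences was not tested.

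The calls depended on which arrays entered the fit. With only the 4 precipitate arrays in the fit none passed, and 0 of all probes did. In that fit 30 genes had an unadjusted p under 0.05 by limma. Every fit that left out 1 array called fewer probes than the main fit, in the family and over all probes. Those fits leave 1 array in a group, so only sizes are given. Zfp474 ran from 2.17 to 2.45 and Zfp558 from 1.72 to 2.51. With the values as deposited, 2 genes were higher and 1 lower. Over all probes that fit called 823, against 1719 in the main fit. All 11 genes kept their direction under each of the 15 alternative fits.

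Across the whole family the differences were spread much as over the array, with an SD of 0.71. It was 0.70 over all probes tested and 0.76 over those at the members' level. The median log2 difference of MVH from IgG was 0.17, with quartiles of -0.34 and 0.56, against a median of 0.07 over all probes tested and 0.08 over those at the members' level. Differences were positive in 70 genes and negative in 46, and 66 genes differed by at most 0.5 either way. The positive share was 60.3%, against 55.0% of all probes tested and 54.8% of those at the members' level. At least a 2-fold difference was seen in 12 genes upward and 6 downward. At or below a log2 difference of 1 lay 89.7% of the genes and 91.1% of the probes at the members' level. Both MVH arrays lay above both IgG arrays in 45 genes (38.8%, against 29.9% of all probes tested), and both IgG arrays above both MVH arrays in 22 (19.0%, against 23.8%). Over the probes at the members' level these shares were 33.1% and 27.8%. A log2 difference of -1 or less was found in 5.17% of the genes and in 9.43% of those probes, and with no centring of the arrays the medians became 0.44 for the family and 0.34 for all probes.

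**Figure D3:**
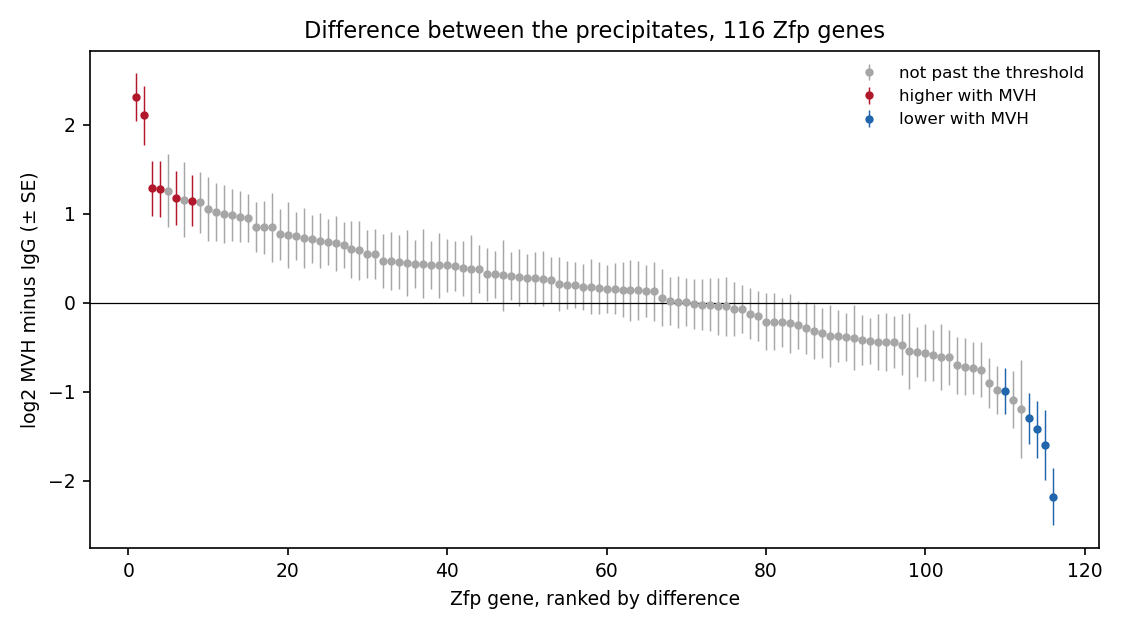
Log2 difference of the MVH from the IgG precipitate (± SE) for the 116 Zfp genes, ranked. The 6 genes higher with MVH and the 5 lower are coloured, and several uncalled genes such as Zfp560 (1.26) and Zfp516 (-1.19) lie as far out with wider errors.

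**Figure D4:**
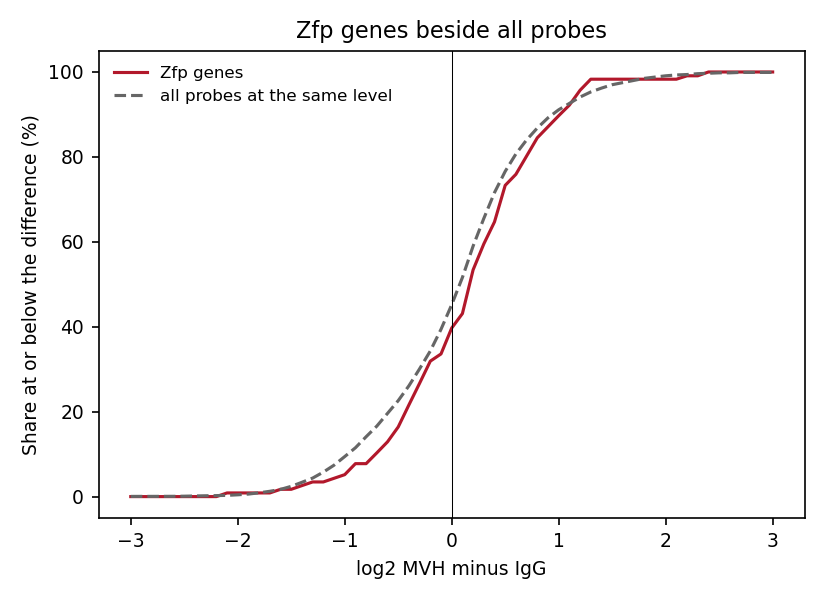
Cumulative share of the 116 Zfp genes (solid) and of the 13247 probes at the same total RNA level (dashed) at or below each log2 difference of MVH from IgG. The Zfp curve lies lower on the left, with 39.7% of the genes at or below 0 against 45.2% of the probes.

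Several large differences did not pass the test. Zfp560 read 145 and 365 for MVH against 98.7 and 92.7 for IgG (log2 1.26 ± 0.41, adjusted p = 0.0943); its MVH arrays lay far apart. Zfp13 read 59.7 and 33.2 against 18.4 and 21.6 (1.16 ± 0.42, adjusted p = 0.128). In the other direction Zfp98, now the myeloid zinc finger gene Mzf1, read 45.9 and 34.9 for MVH against 108 and 67.2 for IgG (-1.09 ± 0.32, adjusted p = 0.0719). Zfp336, now Gzf1, differed by -0.98 ± 0.27 (adjusted p = 0.0621). Zfp291, now Scaper, which encodes a cyclin A partner at the endoplasmic reticulum, differed by -0.90 ± 0.28 (adjusted p = 0.0841). These 5 genes were named because their MVH and IgG arrays did not overlap. Over all probes tested, both MVH arrays lay above both IgG arrays in 29.9%, and the reverse held in 23.8%. Zfp516, a factor of brown fat, was set by 1 array, at 74.6 on IgG 2 against 18.7 on IgG 1 and 14.0 and 19.2 with MVH.

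The 8 members with the brightest probes in total RNA were Zfp217, Zfp330, Zfp523, Zfp96, Zfp423, Zfp259, Zfp87 and Zfp496. Probes differ in how strongly they bind, so brightness does not rank the genes by abundance. Zfp217, known as an oncogene in breast cancer, read 3425 and 4130 for MVH, 1658 and 2208 for IgG, and 4019 and 3183 for total RNA (0.97 ± 0.29, adjusted p = 0.0762). Zfp259, now Zpr1, read 1378 and 2028, 884 and 799, and 1495 and 1623 (0.99 ± 0.29, adjusted p = 0.0722). In both the MVH arrays overlapped with total RNA and the IgG arrays were lower. Zfp423, a factor of fat and cerebellar development, differed by 0.72, Zfp496 (now Zkscan17) by 0.75 and the nucleolar protein gene Zfp330 by 0.73. Zfp96, now Zscan12, differed by -0.02, and Zfp87 by -0.70. Of these 8, Zfp523 alone passed the threshold.

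Of the genes listed by role, 6 of 13 with a known link to germ cells were members, and 3 of them passed, all higher with MVH (Zfp474, Zfp39 and Zfp105). Over all probes at the members' level, 5.43% were higher. The list's median was 0.68, against 0.17 for the family and 0.08 for those probes, and the list was drawn up with earlier results of these data known. The other 3 did not pass. Zfp318, known in testis and for IgD expression in B cells, read 775 and 1178 for MVH and 743 and 961 for IgG (0.18 ± 0.31, adjusted p = 0.774), both above total RNA at 732 and 682. Zfp41 read 927 and 686 against 1157 and 1252 (-0.59 ± 0.29, adjusted p = 0.235). Zfp42, the stem cell marker Rex1, read 146 and 188 against 201 and 150 (-0.07 ± 0.30, adjusted p = 0.914), and its MVH and IgG arrays overlapped.

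Of the members listed for proteins that act on RNA, 0 of 6 genes in a pair of lists passed in either direction. The splicing factor gene Zfp265, now Zranb2, is not among the 6 and differed by 0.42 ± 0.37 (adjusted p = 0.535 by limma). Over all probes at the members' level 11.1% were called, so 0 of 6 is no result about these genes. Zfp36l1 read 62.9 and 62.0 for MVH against 104 and 72.0 for IgG (-0.47 ± 0.34, adjusted p = 0.435), while its relative Zfp36l2 read 96.1 and 97.5 against 82.8 and 67.1 (0.38 ± 0.27, adjusted p = 0.428). Zfp326, a subunit of a complex joining splicing to transcription, read 141 and 142 against 196 and 281 (-0.73 ± 0.29, adjusted p = 0.155). Zfp106, an RNA-binding protein gene, differed by -0.61, the spindle assembly factor gene Zfp207 by 0.27 and Zfp346, which binds double-stranded RNA, by -0.02. At an unadjusted p under 0.05 by limma 1 of the 6, Zfp326, would pass, as would 4167 of the 13247 probes at the members' level. Of the promoter factors 3 of 9 were members, Zfp423, the ubiquitin ligase gene Zfp91 (-0.38) and Zfp335 (0.39). By limma 0 passed, which beside that 11.1% is no result about them either, and 1 (Zfp423) had an unadjusted p under 0.05. None of the 4 genes listed for imprint or retroviral silencing, among them Zfp57 and Zfp445, was a member.

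Against total RNA, whose level chose the members, both precipitates stayed close in the median, at 0.04 for MVH and -0.10 for IgG on the log2 scale. Both MVH arrays lay above both total RNA arrays in 28 genes (background 18.9%) and below in 23 (21.6%). Both IgG arrays lay above in 21 (20.0%) and below in 40 (29.7%). These comparisons share the total RNA arrays, and nothing is read from the counts. In 33 genes neither precipitate was apart from total RNA.

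A few genes moved the same way in both precipitates, and they are named after their values were seen. Zfp654 read 1070 and 1875 for MVH and 811 and 1319 for IgG, against only 242 and 311 in total RNA. That is 2.37 and 1.92 above total RNA on the log2 scale, while the precipitates differed by 0.45 ± 0.37 from each other. Zfp318, Zfp644 and Zfp655 were the other 3 with both precipitates above total RNA. In 8 genes both were below it, among them Zfp410 with 18.9 and 19.0 for MVH, 12.5 and 16.2 for IgG, and 24.1 and 35.6 for total RNA. Zfp82 was another, at 54.5 and 65.3, 61.2 and 78.7, and 91.0 and 102.

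Properties that the rule did not use showed little relation to the difference. The difference correlated with the log2 genomic span of the gene in RefSeq at a Pearson r of 0.09 over 116 genes, and at 0.08 over 9793 probes at the same level with a span. By RefSeq gene order, 44 members had another zinc finger gene of the Zfp, Zscan, Zkscan, Znf or Zbtb names as the next coding gene, and 71 had none. Their medians were 0.08 and 0.21, with 4 genes (9.09%) and 6 genes (8.45%) called. Over all probes at the members' level 11.1% were called. In 9 pairs of members that are direct neighbours, the sign of the difference was the same in 3. Zfp110 (1.28) sits between Zfp329 (-0.21) and Zfp128 (-0.39), and Zfp236 (0.55) beside Zfp516 (-1.19). The 96 members still named Zfp held all 11 calls (11.5%) and had a median of 0.19. The 20 renamed ones had 0 calls and a median of 0.15, and the difference was not tested.

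Some Zfp probes under the members' level also passed. Of 94 with values on all precipitate arrays, 2 were higher with MVH, Zfp75 (1.19 ± 0.30, adjusted p = 0.0472) and Zfp473 (1.39 ± 0.30, adjusted p = 0.0320), and 2 lower, Zfp212 (-1.17 ± 0.28, adjusted p = 0.0410) and Zfp3 (-1.52 ± 0.32, adjusted p = 0.0304). All 4 were dim, with total RNA at 3.90 to 17.7. The share called among the 94 was 4.26%, against 7.97% of all probes tested. That background is not a like one, since 1467 of its 1719 calls were probes at the members' level. No share over dim probes alone was computed, so nothing is read from the comparison. The dimmer second probe of Zfp553 differed by 1.11, against 0.01 for the brighter one.

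Genes of the machinery through which KRAB zinc finger proteins silence their targets gave 3 calls, all lower with MVH. Of 26 genes listed for TRIM28 and its complexes, 17 were measured at the same level, and 0 were higher and 3 lower (17.6%, with 12 of the 17 differences negative), with a median of -0.54. Over all probes at that level 11.1% were called, 5.65% were lower and the median was 0.08. The 3 were Dnmt1, the maintenance DNA methyltransferase gene (69.6 and 85.0 for MVH against 197 and 206 for IgG, log2 -1.39 ± 0.27, adjusted p = 0.0254), its recruiter Uhrf1 (-1.28 ± 0.30, adjusted p = 0.0369) and the HUSH complex gene Pphln1 (-1.43 ± 0.29, adjusted p = 0.0281). The histone chaperone gene Rbbp7 differed by -1.14 ± 0.34 and did not pass (adjusted p = 0.0726). Trim28 itself differed by 0.01 ± 0.32, and the histone methyltransferase gene Setdb1 by -1.04 ± 0.29 (adjusted p = 0.0604). Of the 17 differences 5 were positive, the largest that of Mta1 (1.09 ± 0.38, adjusted p = 0.115). The Zfp genes and this list were not tested against each other, and the part of the Leydig and peritubular markers, of which most were lower with MVH, was not tested.

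Other zinc finger families were counted at the same level, where 11.1% of all probes were called. Of 14 Zbtb genes 1 was lower, Zbtb20 (-1.48, adjusted p = 0.0373), a share of 7.14%, with a median of -0.02. Of 15 Zc3h and Zcchc genes 1 was lower, Zc3h11a (-1.28, adjusted p = 0.0330), a share of 6.67%, with a median of -0.19. Of 15 Zdhhc palmitoyltransferase genes 2 were higher, Zdhhc4 (1.68, adjusted p = 0.0284) and Zdhhc5 (1.42, adjusted p = 0.0235), a share of 13.3%, with a median of 0.32. Of 3 Zscan and Zkscan genes not counted among the members 1 was higher, Zscan22 (1.21, adjusted p = 0.0359), a share of 33.3% that rests on that gene. All 8 measured genes of the Klf and Sp list were Klf genes, and none of them or of 4 Prdm genes passed by limma. At an unadjusted p under 0.05 the counts were 3 and 0, beside 4167 of the 13247 probes at that level.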

How the data were processed

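RNA of testis was measured on 6 one-colour arrays. The authors deposited 1 linear intensity per probe and array. How it was scanned, background-corrected and scaled is not given in the sources used here. Its median was 30 on 5 arrays and 20.8 on IgG 2, and the number of arrays limits the precision. Probe names came from the platform annotation, updated through RefSeq (GRCm38.p6), which served for names, spans and gene order only. After log2, every array's own median was subtracted. All 6 arrays were fitted with limma 3.58.1 in R 4.3.3 (lmFit, eBayes, 3 residual and 5.77 prior degrees of freedom), and a probe was tested where all 4 precipitate arrays had a value. p-values were Benjamini-Hochberg adjusted over 21574 probes, with a threshold of 0.05. The steps were tested on simulated data. Plots used matplotlib 3.10.9.

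The members and lists were chosen with earlier results of these data known. Named genes are those past the threshold, the largest non-overlapping ones up to 8 a direction, the 8 brightest in total RNA, those next to the limit, role list members and up to 4 of each other list. Zfp265, Zfp369, Zfp516, Zfp654, Zfp410, Zfp82, Zfp644, Zfp655, the neighbour genes, Trim28, Setdb1 and Mta1 were named after their values were seen. Antisense genes were dropped from the family lists after that too. The lists are 5 of zinc finger roles, 1 of TRIM28 partners, 6 of other families and 8 of cell type markers. Alternatives were another centring, quantile normalization, a filter on dim probes, an offset, other probe sets, arrays, variance models and member rules, the replicate number as a block, and leaving out each array.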

Additional observations from a re-analysis of the deposited data

How the results depend on the processing

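The 6 genes higher and 5 lower with MVH became 14 and 8 without the dimmest 25% of probes or with a variance trend and robust prior. They became 12 and 8 with an offset of 2.70 before log2, 2 and 1 with no centring, and 0 and 0 with only the 4 precipitate arrays. Over all probes the calls moved the same way. From 1719 in the main fit they became 3271, 3143, 2849, 823 and 0 in these fits, in the same order. Leaving out 1 array lost calls in the family and over all probes, and the cause was not tested. The total RNA arrays enter only through the spread. The counts were within 1.5 times with quantile normalization, centring on the 75th percentile, probes listed on all 6 arrays and the other member rules. The family median ran from 0.15 to 0.23 and was 0.44 with no centring, where that of all probes was 0.34. Against total RNA, alternatives chosen after seeing the data moved the IgG median from -0.10 to -0.37 with no centring, as they did that of all probes. With the replicate block 6 genes were higher and 6 lower, and the family median was 0.17. Arrays of the same number deviated together only weakly (r = 0.16, 0.16 and 0.10 over probes listed on all 6 arrays), so the numbers were not taken as pairs. Of values at named genes, 0 reversed a call.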
